A study of Mus musculus with 6 samples.

Results

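Heme breakdown and iron handling were described through 10 genes in mouse embryonic fibroblasts exposed to sodium arsenite. The genes were chosen by symbol: Hmox1 and Hmox2 (heme oxygenases), Blvra and Blvrb (biliverdin reductases), Fth1 and Ftl1 (the heavy and light chains of ferritin), Tfrc (transferrin receptor 1), Slc40a1 (ferroportin), Alas1 and Fech (the first and last enzymes of heme synthesis). All 10 were found among the 37224 Ensembl gene IDs of the deposited table, and all 10 were among the 12588 that reached an RPKM of at least 1 in any library. RPKM counts reads per kilobase of gene, scaled to the size of the library. Slc40a1 passed that limit only through the wild-type control, where it was highest.

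The study compared fibroblasts of C57BL/6 background that were wild type or Dot1L-/-, called Dot1L null here, each left untreated or given a low dose of sodium arsenite for 24 h. Dot1L methylates histone H3 at lysine 79. The labels call all cells primary embryonic fibroblasts and say nothing of the embryos' stage, of how the null allele was made, or of how many embryos or clones stand behind a library. The treatment protocol names 5 and 10 µM arsenite beside 0 µM, and which of these was sequenced is not given. Each of the 4 groups held 1 library, so no difference below has a replicate check, and no p-value was computed. A further 2 libraries, of acetylated lysine 27 of histone H3 in wild-type cells, were not analysed here.

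Heme oxygenase opens the heme ring and releases iron, carbon monoxide and biliverdin, and biliverdin reductase turns biliverdin into bilirubin. The freed iron can be stored in ferritin, a shell built of heavy and light chains, or leave the cell through ferroportin, while transferrin receptor 1 brings iron in. Hmox1 is the inducible heme oxygenase and Hmox2 the constitutive one, and Hmox1 and both ferritin chains are known targets of the transcription factor NRF2. When iron is scarce, iron regulatory proteins block translation of ferritin mRNA and protect the mRNA of the transferrin receptor from decay.

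The 4 libraries held between 10833103 and 64699847 reads, as recovered from the steps of the deposited values. The control was 5.81 times deeper than the arsenite library in wild type and 5.45 times deeper in the null. Dot1l stood at 30.4 RPKM in untreated wild-type and 9.59 in untreated null cells, and at 5.71 and 1.24 under arsenite. Its RNA was thus lower but present in the libraries labelled null. Gene totals do not show whether some exons were missing. Of 11 fibroblast markers, 9 passed the filter, and Thy1 was listed at 0 throughout. With arsenite 7 of the 9 were lower and 1 higher in wild type (median −2.62), and 4 were lower and 1 higher in the null (−0.88). Of all genes past the filter, 35.7% were lower and 12.8% higher in wild type, and 37.1% and 15.2% in the null. The 4 of 9 in the null was near that share. Without the trend on gene length described below, 6 were lower and 1 higher in wild type (−1.14). In the null 2 were then lower and 2 higher (0.35). Among all 12588 genes 1996 were then lower and 1834 higher in wild type, and 2634 and 2359 in the null. The part of the markers in the results below was not tested. The summed RPKM of 12 erythroid markers, cells that make most heme, lay between 0.248 and 0.496, with 6 of them, including the adult globin gene Hbb-bs, listed at 0. Macrophage and leukocyte markers, 12 in all, summed to between 4.95 and 24.5 RPKM, most of it from Cd14 and Cd68. The 8 hepatocyte markers summed to between 8.13 and 121 RPKM, most of it from Hp. In bulk RNA, fewer cells of a type and less RNA per cell cannot be told apart.

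The letters upstream of 5 of the genes are shown first. The 5 stretches below are the 250 bases before a RefSeq transcription start in GRCm38.p6, 5′ to 3′ on the strand of the gene. They are Blvrb at chr7:27447728-27447977 (plus strand), Blvra at chr2:127070407-127070656 (plus), Fth1 at chr19:9982396-9982645 (plus), Ftl1 at chr7:45459887-45460136 (minus) and Tfrc at chr16:32608646-32608895 (plus). For Blvrb and Tfrc this is the upstream of 2 listed starts, and for Fth1 the downstream of 2. Blvrb, Blvra, Fth1 and Ftl1 are shown as 4 genes that were all higher with arsenite in wild type, and Tfrc as the gene that was lower. Capitals mark matches, on either strand, to TGACNNNGC (the core of the antioxidant response element), TGANTCA (AP-1), ACGTG (part of the hypoxia response element), CCAAT and TATAA.
Blvrb: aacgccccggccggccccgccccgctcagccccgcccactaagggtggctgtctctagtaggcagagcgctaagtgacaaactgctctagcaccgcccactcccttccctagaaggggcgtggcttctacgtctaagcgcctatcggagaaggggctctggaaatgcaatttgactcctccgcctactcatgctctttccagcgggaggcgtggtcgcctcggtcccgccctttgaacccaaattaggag
Blvra: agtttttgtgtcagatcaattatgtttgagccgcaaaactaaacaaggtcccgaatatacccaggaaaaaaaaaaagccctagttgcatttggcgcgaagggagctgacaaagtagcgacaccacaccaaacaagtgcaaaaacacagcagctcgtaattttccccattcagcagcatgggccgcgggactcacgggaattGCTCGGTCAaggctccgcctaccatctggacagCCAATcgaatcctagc
Fth1: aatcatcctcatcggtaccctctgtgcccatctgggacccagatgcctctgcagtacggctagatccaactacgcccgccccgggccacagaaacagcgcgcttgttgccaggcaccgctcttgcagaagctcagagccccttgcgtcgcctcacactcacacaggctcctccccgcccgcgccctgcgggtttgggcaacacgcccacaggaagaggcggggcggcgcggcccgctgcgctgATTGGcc
Ftl1: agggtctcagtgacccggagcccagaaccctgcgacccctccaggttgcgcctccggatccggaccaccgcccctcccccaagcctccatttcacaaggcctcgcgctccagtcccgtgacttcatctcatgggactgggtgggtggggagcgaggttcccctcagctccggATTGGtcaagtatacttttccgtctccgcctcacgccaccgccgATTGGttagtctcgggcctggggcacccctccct
Tfrc: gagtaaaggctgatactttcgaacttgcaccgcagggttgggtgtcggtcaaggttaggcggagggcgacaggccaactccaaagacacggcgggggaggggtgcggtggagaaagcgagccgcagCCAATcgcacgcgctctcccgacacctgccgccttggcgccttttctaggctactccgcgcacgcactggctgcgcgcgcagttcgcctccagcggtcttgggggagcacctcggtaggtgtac
Blvra held a match to TGACNNNGC, on the minus strand 41 to 49 bases before its start, as did 10.2% of 32851 such stretches across all genes. CCAAT was found in Blvra, Fth1, Ftl1 and Tfrc, with 2 matches in Ftl1, against 33.8% of all stretches. None of the 5 motifs was found in the Blvrb stretch. The AP-1 letters (6.75% of all stretches), the TATA letters (22.8%) and those of the hypoxia element (16.6%) were in none of the 5 shown. At the other listed starts, not shown, the hypoxia letters were found for Blvrb and Tfrc and the TATA letters for Tfrc and Fth1. A match is a description of letters, not a site, and its absence says only that these letters are not in this window. Stretches were examined for 7 of the 10 genes. None was examined for Hmox1, Slc40a1 and Fech, which does not show that RefSeq lists no start for them.

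**Figure D1:**
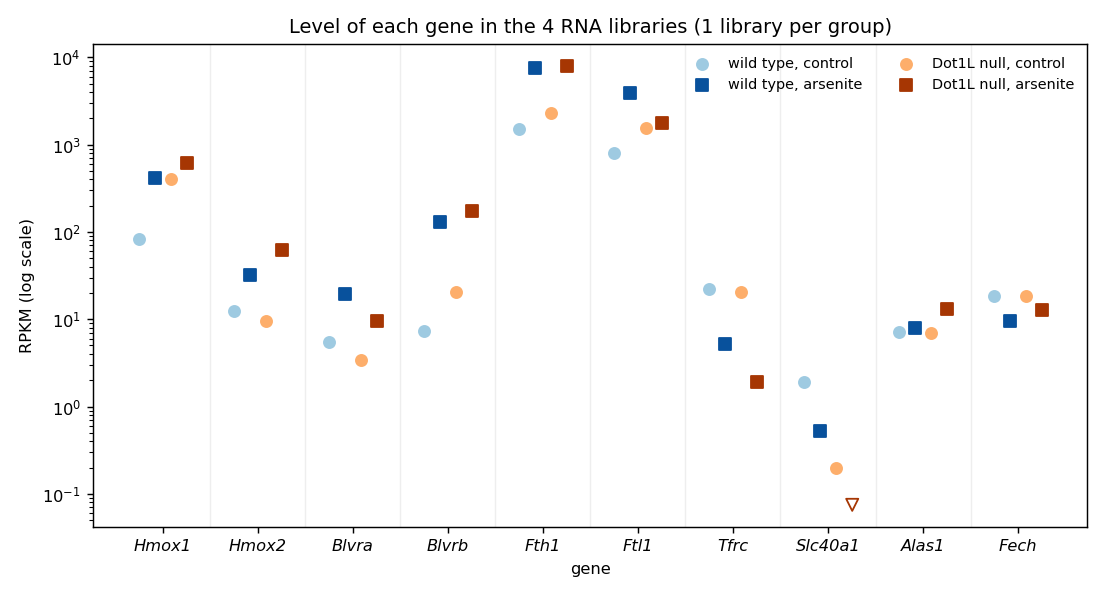
Level of the 10 genes in RPKM (log axis) in the 4 libraries, circles for controls and squares for arsenite, blue for wild type and orange for Dot1L null. The open triangle stands at the RPKM of 3 reads for Slc40a1, which had 0 reads in the null with arsenite. Fth1 and Ftl1 sit highest in every library, Blvrb and Hmox2 are higher with arsenite in both genotypes, and Tfrc is lower in both.

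Hmox1 (ENSMUSG00000005413, chromosome 8, 75093618 to 75100593 in GRCm38) had an RPKM of 82.4 in untreated wild-type cells, 416 in treated wild-type cells, 405 in untreated null cells and 618 in treated null cells. The wild-type control alone was low, and the untreated null stood at nearly the same level as arsenite-treated wild type. Between those libraries the ratio was 1.03 (95% counting interval 1.01 to 1.05). Intervals here are exact intervals of the ratio of reads, which cover counting error only. Arsenite went with a 5.05-fold higher level in wild type (4.92 to 5.19) and a 1.52-fold higher level in the null (1.498 to 1.55). Without arsenite the null was 4.92-fold above wild type (4.82 to 5.02), which placed Hmox1 at rank 150 from the top of 12588 genes in that comparison. With arsenite the null was 1.48-fold above wild type (1.45 to 1.52). The arsenite effect, as log2((RPKM + 1)/(RPKM + 1)), was 2.32 in wild type and 0.61 in the null, a difference of −1.72. Scaling the libraries to an equal sum of RPKM turned the effect in the null to −0.30, whereas in wild type it remained at 1.39.

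Hmox2 (ENSMUSG00000004070, chromosome 16, 4726361 to 4766742) differed from Hmox1 in where it was highest. It had an RPKM of 12.6 in untreated wild-type cells, 32.3 in treated wild-type cells, 9.57 in untreated null cells and 61.9 in treated null cells. Both arsenite libraries were above both controls, and the null with arsenite was the highest. The fold was 2.57 in wild type (2.36 to 2.80) and 6.47 in the null (6.02 to 6.96). On the log2 scale the effects were 1.29 and 2.57, so their difference, 1.28, had the opposite sign to that of Hmox1. The RPKM ratio of Hmox1 to Hmox2 was 6.55 in untreated wild-type cells, 12.9 in treated wild-type cells, 42.4 in untreated null cells and 9.97 in treated null cells. The end of Hmox2 overlaps Cdip1 in the annotation, and the strand setting of the authors' counting is not given. Cdip1 had RPKM values of 8.97, 3.58, 11.6 and 3.43 in the same order, lower with arsenite where Hmox2 was higher.

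The biliverdin reductases both had higher levels with arsenite in both genotypes. Blvrb (ENSMUSG00000040466, chromosome 7, 27447978 to 27465981), which also reduces flavins, had an RPKM of 7.28 in untreated wild-type cells, 128 in treated wild-type cells, 20.4 in untreated null cells and 176 in treated null cells. Both arsenite libraries stood far above both controls, and among the controls the null was 2.80-fold higher (2.56 to 3.07). Blvrb was 17.6-fold higher with arsenite in wild type (16.1 to 19.3), rank 39 from the top of 12588 genes, and 8.62-fold higher in the null (8.13 to 9.14). Blvra (ENSMUSG00000001999, chromosome 2, 127070629 to 127097084), the main enzyme for biliverdin in adult mammals, had values of 5.48, 19.6, 3.40 and 9.60 RPKM in the same order. It was 3.57-fold higher with arsenite in wild type (3.20 to 3.99) and 2.82-fold higher in the null (2.44 to 3.27), and in both conditions the null library was below the wild-type one. The RPKM ratio of Blvrb to Blvra was 1.33 in untreated wild-type cells, 6.56 in treated wild-type cells, 6.00 in untreated null cells and 18.3 in treated null cells.

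The ferritin chains were the most abundant of the 10 genes, and their levels parted between the genotypes. Fth1 (ENSMUSG00000024661, chromosome 19, 9980600 to 9985111) reached an RPKM of 1521 in untreated wild-type cells, 7564 in treated wild-type cells, 2311 in untreated null cells and 7978 in treated null cells. It was 4.97-fold higher with arsenite in wild type (4.92 to 5.02) and 3.45-fold higher in the null (3.42 to 3.48), and the arsenite libraries differed by 1.05-fold (1.04 to 1.07). Ftl1 (ENSMUSG00000050708, chromosome 7, 45457944 to 45459886) had 810, 3867, 1552 and 1775 RPKM in the same order. Wild type with arsenite was the highest library, 2.18-fold above the null with arsenite (2.15 to 2.21). Among the controls the null was 1.92-fold above wild type (1.90 to 1.93). Ftl1 was 4.78-fold higher with arsenite in wild type (4.72 to 4.83) and 1.14-fold higher in the null (1.13 to 1.16). The difference of its arsenite effects, −2.06 on the log2 scale, was the most negative of the 10 genes and rank 168 from the bottom of 12588.

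The RPKM ratio of heavy to light chain was 1.88 in untreated wild-type cells, 1.96 in treated wild-type cells, 1.49 in untreated null cells and 4.50 in treated null cells. Reads of both chains together made up 0.240% of the wild-type control and 1.17% of wild type with arsenite. In the null they made up 0.408% of the control and 0.929% with arsenite. Ferritin has processed pseudogenes, and 4 of them in the table had RPKM values from 0 to 51.7. How the authors assigned reads that fit several copies is not given, so the ferritin levels carry that uncertainty. Fth1 and Ftl1 are short, at 866 and 1340 bases of recovered length, and short genes as a whole were higher with arsenite, as described below. With the trend on length removed, the arsenite effect of Ftl1 in the null was −0.37 in place of 0.19, and that of Fth1 was 0.68 in place of 1.79.

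Tfrc (ENSMUSG00000022797, chromosome 16, 32608896 to 32632794) ran the other way. It had an RPKM of 22.1 in untreated wild-type cells, 5.25 in treated wild-type cells, 20.5 in untreated null cells and 1.91 in treated null cells. Both arsenite libraries were below both controls, and the null with arsenite was the lowest. It was 4.20-fold lower with arsenite in wild type (3.78 to 4.69) and 10.7-fold lower in the null (9.10 to 12.8). The controls differed by only 1.08-fold (1.05 to 1.11), and with arsenite the null was 2.76-fold below wild type (2.26 to 3.38). Tfrc is the longest of the 10 genes, at 6185 bases of recovered length. Without the trend on length its arsenite effect was −0.70 in place of −1.88 in wild type, no longer past 2-fold, and −1.69 in place of −2.89 in the null.

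Slc40a1 (ENSMUSG00000025993, chromosome 1, 45908070 to 45926532), the iron exporter, was at the edge of detection. It had 401 reads in untreated wild-type cells, 19 in treated wild-type cells, 43 in untreated null cells and 0 in treated null cells, or 1.88, 0.519, 0.197 and 0 RPKM. Only the wild-type control was above 1 RPKM. Macrophages are rich in ferroportin, and the summed macrophage and leukocyte markers stood at 24.5, 18.5, 4.95 and 11.85 RPKM in the same order. Most of the sum in wild type was Cd14, at 21.1, 11.6, 1.16 and 1.71 RPKM. Lyz2 went the other way, at 0.0125, 0.729, 1.16 and 2.99 RPKM. Of the 4 such markers past the filter, 1 was higher and 1 lower in the null, without arsenite and with it. The sum thus does not stand for the list, and the part of these markers in the level of Slc40a1 was not tested. In the untreated null Slc40a1 was 9.58-fold lower than in wild type (6.98 to 13.4). Arsenite went with a 3.63-fold lower level in wild type (2.29 to 6.09) and, set against a floor of 3 reads, an at least 2.63-fold lower level in the null. On the log2(RPKM + 1) scale, which understates differences at such levels, its arsenite effects were −0.93 and −0.26. The one in the null turned to 0.27 when measured from the median of all genes and to 0.39 without the trend on length.

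Alas1 and Fech stayed within 2-fold with arsenite in both genotypes as deposited. Alas1 (ENSMUSG00000032786, chromosome 9, 106233455 to 106247954), which makes the first precursor and is repressed by heme in liver, had RPKM values of 7.21 in untreated wild-type cells, 7.92 in treated wild-type cells, 6.94 in untreated null cells and 12.9 in treated null cells. Only the null with arsenite stood out, 1.86-fold above its control (1.64 to 2.11), while in wild type the ratio was 1.10 (0.934 to 1.29), an interval that includes no difference. With an equal sum of RPKM the effects were −0.72 in wild type and −0.0068 in the null, in place of 0.12 and 0.81. Fech (ENSMUSG00000024588, chromosome 18, 64456542 to 64489098), which inserts iron into the ring, had 18.4, 9.42, 18.6 and 12.8 RPKM in the same order. It was 1.95-fold lower with arsenite in wild type (1.73 to 2.21) and 1.46-fold lower in the null (1.32 to 1.61). The controls could not be told apart at this depth, with a ratio of 1.01 (0.966 to 1.06). In the null, centring on the median and scaling to the 75th percentile brought the Fech effect to 0.02 and 0.08, so its direction there depended on scaling. With an equal sum of RPKM the Fech effect was −1.78 in wild type and −1.36 in the null, past 2-fold in both.

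**Figure D2:**
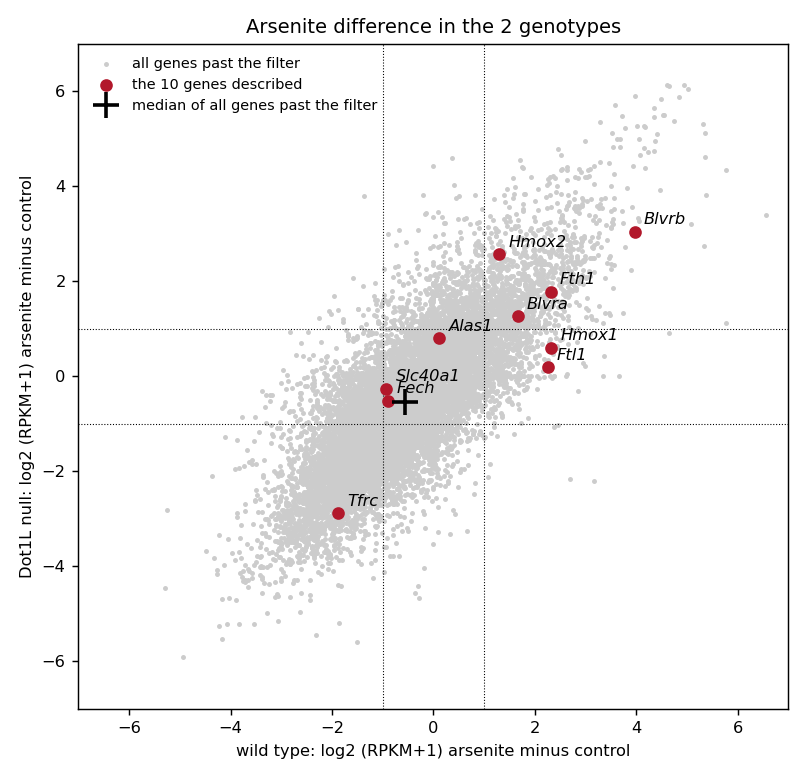
Arsenite effect in wild type (horizontal) against that in Dot1L null (vertical), both as log2 differences of RPKM + 1, for 12588 genes in grey and the 10 genes in red, with dotted lines at 2-fold and a cross at the median of all genes. Hmox1 and Ftl1 lie at about the same height in wild type as Fth1 and below it in the null. Hmox2 lies higher in the null than in wild type, and Tfrc is the lowest of the 10 genes on both axes.

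Counted at a log2 difference of 1 or more, 6 of the 10 genes were higher with arsenite in wild type and 1, Tfrc, was lower. Among all 12588 genes 12.8% were higher and 35.7% lower. The 6 were Hmox1, Hmox2, Blvra, Blvrb, Fth1 and Ftl1, and Slc40a1, Alas1 and Fech were past neither bound. The median of the 10 effects was 1.48, and that of all genes was −0.56. In the null, 4 of the 10 were higher (Hmox2, Blvra, Blvrb and Fth1) and Tfrc was lower, beside 15.2% and 37.1% of all genes. There the median was 0.71, and that of all genes −0.53. Measured from the median of all genes, 6 were higher and 1 lower in each genotype. The null then gained Hmox1 (1.14) and Alas1 (1.35). By the same measure 2721 of all 12588 genes were higher and 2437 lower in wild type, and 2948 were higher and 2997 lower in the null.

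Between genotypes without arsenite, Hmox1 and Blvrb were higher in the null and Slc40a1 was lower, 2 and 1 of 10, beside 6.45% and 14.7% of all genes. The 1 lower is no more than that share. Slc40a1 passed the filter only through the wild-type control, where it was high, so that count says nothing more. Ftl1 lay just inside the bound at 0.94, and Tfrc (−0.10), Alas1 (−0.05) and Fech (0.02) were near 0. With arsenite, none of the 10 was higher in the null by that rule, and Ftl1 (−1.12) and Tfrc (−1.11) were lower, beside 8.75% and 16.9% of all genes. Measured from the median of all genes, −0.28, neither of those remained past the bound and Hmox2 (1.20) was above it. By that measure 1617 of all 12588 genes were higher and 1213 lower. Setting the effect in the null against that in wild type, Hmox1, Ftl1 and, just at the bound, Tfrc differed by −1 or less, and Hmox2 by 1 or more, beside 12.8% and 12.1% of all genes. These comparisons share libraries with each other, and the wild-type control in which Hmox1 and Blvrb were lowest enters the first, the third and the last.

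The effect of arsenite followed gene length across the whole table. Each doubling of the recovered length went with a change of −0.70 in wild type and −0.72 in the null, over 11660 genes with reads in all 4 libraries. Between genotypes the slopes were −0.04 without arsenite and −0.06 with it. Relative to a smoothed trend on length, Blvrb remained the highest of the 10 in wild type at 3.46, followed by Hmox1 at 2.40, Blvra at 1.89, Ftl1 at 1.67, Hmox2 at 1.40 and Fth1 at 1.26. In the null Hmox2 was highest at 2.71, with Blvrb at 2.56, Blvra at 1.51 and Hmox1 at 0.71. The part of depth, RNA selection or RNA quality in the trend was not tested.

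**Figure D3:**
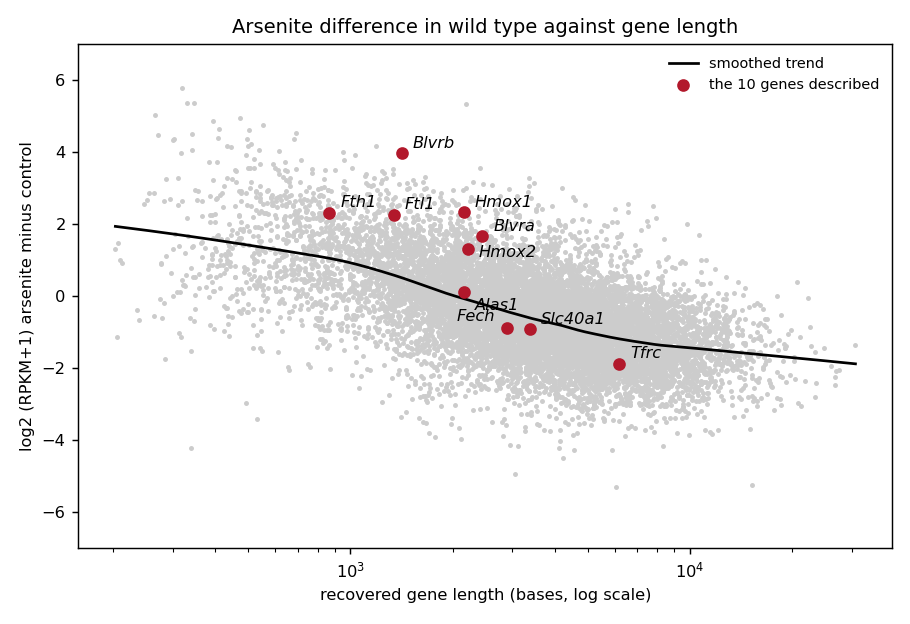
Arsenite effect in wild type (log2 difference of RPKM + 1) against recovered gene length in bases on a log axis, for 11660 genes in grey with a smoothed trend in black and the 10 genes in red. Blvrb, Hmox1, Blvra and Ftl1 lie more than 1.5 above the trend, and Tfrc lies 0.70 below it.

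Several calls depended on how the libraries were scaled. Of all genes past 2-fold with arsenite in wild type, 26.4% were higher as deposited, 52.8% after median centring, 43.9% after scaling to the 75th percentile, 47.9% without the trend on length and 8.51% with an equal sum of RPKM. In the null the same shares were 29.0%, 49.6%, 46.5%, 47.2% and 11.5%. Hmox1, Blvrb, Fth1 and Ftl1 in wild type and Hmox2 and Blvrb in the null stayed at least 2-fold higher under all 8 alternatives, and Tfrc in the null stayed at least 2-fold lower. Hmox2 and Blvra in wild type dropped to 0.40 and 0.82 with an equal sum of RPKM. In the null Blvra dropped to 0.50 with an equal sum and to 0.80 with a pseudocount of 5, and Fth1 to 0.88 with an equal sum and to 0.68 without the trend.

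**Figure D4:**
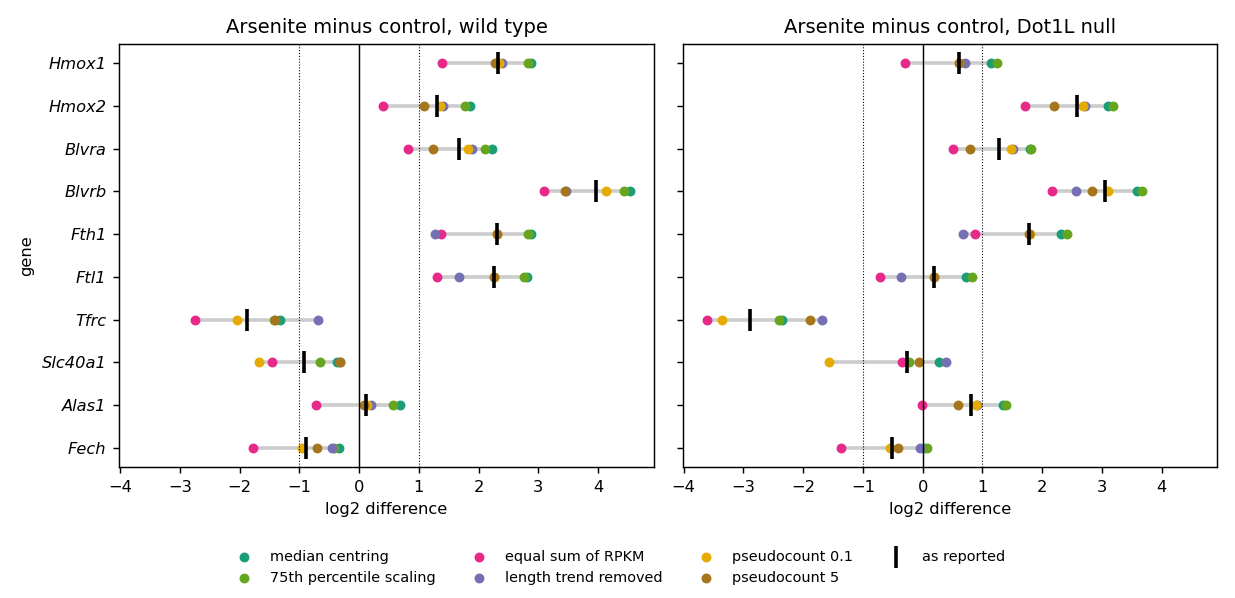
Arsenite effect of each gene (log2 difference) in wild type (left) and Dot1L null (right), as reported (black bars) and under 6 of the alternatives (coloured dots), with dotted lines at 2-fold and a grey line over the whole range of all alternatives. In wild type Hmox1, Blvrb, Fth1 and Ftl1 stay right of the upper bound. In the null the dots of Hmox1, Ftl1, Slc40a1, Alas1 and Fech fall on both sides of 0.

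The wider pathways were read from 9 lists. Their counts stand beside the shares of all genes, 12.8% higher and 35.7% lower in wild type and 15.2% higher and 37.1% lower in the null. Counts without the trend on length stand beside 1834 higher and 1996 lower of all 12588 genes in wild type. In the null these were 2359 higher and 2634 lower. In the heme synthesis list 12 of 13 genes passed the filter, with Alas2, the erythroid form of the first enzyme, listed at 0. In wild type 4 were higher with arsenite and 2 lower (median 0.65), and in the null 3 were higher and 2 lower (0.16). Alad, the second enzyme, went from 12.6 to 39.6 RPKM in wild-type cells and 10.7 to 31.2 in null cells. Cpox, which makes protoporphyrinogen, went from 13.4 to 2.93 and from 24.4 to 1.66. Ppox, the enzyme after it, went from 4.57 to 8.59 and from 4.51 to 16.6. Abcb10, a mitochondrial transporter, went from 9.71 to 2.53 and from 11.01 to 3.46. Without the trend on length its effects were −0.75 and −0.57, inside the bound, which left 1 gene of the list lower in each genotype. Tmem14c, a mitochondrial porphyrin transporter, was also higher in both genotypes, and Urod, the enzyme before Cpox, was higher in wild type (1.09 on the log2 scale). Without the trend on length Tmem14c was past the bound in neither genotype, and Urod was at 1.39 in wild type. These 2 were named after their values were seen, as were the further genes named below for a count. Enzymes of one pathway thus stood on different sides.

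In the list of heme and pigment breakdown, 5 of 6 genes passed, and Por, the reductase that feeds electrons to heme oxygenase, was level with arsenite (36.3 and 34.8 RPKM in wild type, 24.6 and 23.7 in the null). The other 4 are described above. In the list of heme transport and binding, 10 of 12 passed, with 1 higher and 1 lower in wild type and 2 higher and 3 lower in the null, where 3 of 10 is no more than the share of all genes. Slc48a1, which carries heme out of lysosomes, was higher in both genotypes, from 82.0 to 183 RPKM in wild-type cells and 54.4 to 125 in null cells. Flvcr1, a heme exporter, went from 6.21 to 0.610 RPKM in wild-type cells and 7.51 to 0.103 in null cells. Pgrmc1, a heme-binding membrane protein, stood at 61.1 and 73.3 in wild type and at 66.6 and 15.7 in the null. Its partner Pgrmc2 went from 23.9 to 12.8 and from 29.8 to 11.4. Slc46a1, known as a folate and heme carrier, was 3.24 and 3.17 in wild type and 1.95 and 7.58 in the null.

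Iron uptake genes passed the filter in 11 of 13 cases. In wild type 1 was higher and 5 lower (median −0.36), and in the null 2 were higher and 4 lower (−0.91). The lower counts, 5 and 4 of 11, were near the shares of all genes. With the trend on length removed none was lower in wild type and 1 in the null. The 1 higher in wild type was Slc11a1, an endosomal metal transporter of macrophages, at 0.129 and 1.62 RPKM. It passed the filter only through the library where it was high, so that count says nothing more. Likewise Steap4, 1 of the 5 lower in wild type (1.46 and 0.0294 RPKM), passed only through the wild-type control. Steap1 (78.6 and 159 RPKM) and Lcn2 were the 2 higher in the null. Lcn2, a secreted protein that binds iron-carrying siderophores, was 34.1 and 33.7 RPKM in wild type, and 29.8 and 316 in the null. Slc39a14, a zinc and iron importer, went from 10.8 to 1.58 in wild-type cells and 4.67 to 0.806 in null cells. Steap3, an endosomal iron reductase, was 0.834 and 0.452 in wild type and 17.3 and 4.52 in the null. Steap2, of the same family, went from 6.34 to 1.90 and from 13.6 to 4.34.

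Genes that load and turn over ferritin were lower with arsenite in both genotypes. Ncoa4, the receptor that carries ferritin to the lysosome, went from 34.5 to 4.69 RPKM with arsenite in wild-type cells and 25.9 to 1.08 in null cells. Pcbp1, an iron chaperone that loads ferritin, went from 180 to 48.6 and from 339 to 22.4. Pcbp2, its relative, went from 277 to 129 and from 264 to 52.8. In the storage list, 5 of 6 genes passed: both ferritins were higher in wild type and these 3 were lower, and in the null Fth1 was higher and the same 3 were lower. Without the trend on length Pcbp2 in wild type was at −0.68, inside the bound, and Fth1 in the null was also inside it. Of 7 export genes 3 passed. Cp, the ferroxidase ceruloplasmin, went from 61.8 to 23.0 in wild-type cells and 27.8 to 106 in null cells, and App, which is reported to stabilise ferroportin, from 94.2 to 10.8 and from 170 to 7.59.

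Of 5 iron regulatory genes measured, 3 were lower in each genotype and none was higher (medians −1.60 and −1.49), beside 35.7% and 37.1% of all genes lower. Aco1 and Ireb2 encode the iron regulatory proteins, and Fbxl5 the ligase subunit that removes Ireb2 when iron is ample. Aco1 went from 23.6 to 6.06 RPKM in wild-type cells and 21.3 to 6.95 in null cells. Ireb2 went from 13.1 to 2.88 and from 18.3 to 1.32. Fbxl5 went from 7.63 to 1.84 and from 4.84 to 0.894. Hfe, a partner of the transferrin receptor, was 0.854 and 0.930 in wild type and 5.11 and 2.43 in the null. Once the trend on length was removed none of the 5 was past the bound in wild type. In the null Ireb2 (−1.92) was then the 1 lower and Tmprss6 (1.42) the 1 higher. Tmprss6, at 0.581 and 1.82 RPKM in the null, passed the filter only through the null with arsenite, so its call says nothing more.

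Mitochondrial iron import and iron-sulfur cluster genes, 24 in all, had 6 higher and 3 lower in wild type (median 0.53) and 4 higher and 3 lower in the null (0.11), against the shares of all genes given above. Without the trend on length 6 were higher and 0 lower in wild type, and 3 higher and 0 lower in the null. Bola3, a cluster assembly factor, went from 2.96 to 14.9 RPKM and from 4.15 to 13.1. Slc25a37, the mitochondrial iron importer mitoferrin 1, went from 29.6 to 9.03 and from 9.24 to 3.03, and without the trend its effects were −0.80 and −0.52, inside the bound.

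Regulators of Hmox1 were lower with arsenite in 10 of 12 cases in each genotype, and none was higher (medians −1.86 and −2.07), beside 35.7% and 37.1% of all genes lower. Without the trend on length 9 were lower in each, and 1, Keap1 in the null, was higher. The wild-type counts, with the trend and without it, include Fos, at 3.02 RPKM untreated and 0.275 with arsenite. Fos passed the filter only through the wild-type control, where it was high, so its call says nothing more. Nfe2l2, which encodes NRF2, went from 35.5 to 11.3 RPKM in wild-type cells and 24.6 to 4.88 in null cells. Without the trend on length the effect of Nfe2l2 was −0.85 in wild type, inside the bound, and −1.36 in the null. Keap1, which keeps NRF2 low, was 16.4 and 15.1 in wild type and 13.8 and 17.4 in the null. Bach1, the heme-sensing repressor of Hmox1, went from 6.59 to 0.523 and from 9.61 to 0.627. The small MAF partners Mafg and Mafk went from 43.2 to 7.38 and from 26.5 to 6.51 in wild type, and from 31.9 to 4.99 and from 21.6 to 4.596 in the null. Jun, a subunit of AP-1, went from 41.6 to 3.36 and from 12.4 to 1.87. Hif1a, the hypoxia factor, went from 48.7 to 1.57 and from 60.3 to 2.64. Nfe2l1, a relative of NRF2, went from 129 to 25.2 and from 102 to 13.4.

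**Figure D5:**
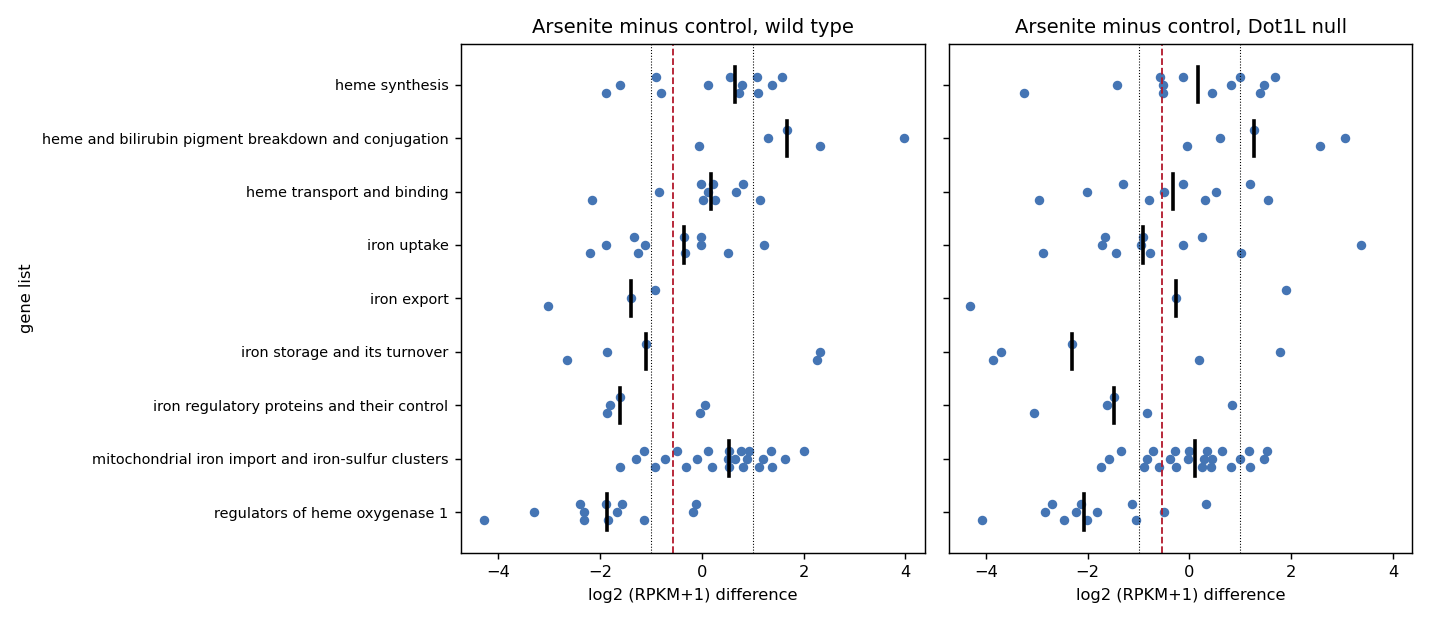
Arsenite effect (log2 difference of RPKM + 1) of the genes of 9 lists that passed the filter, in wild type (left) and Dot1L null (right). Points are genes, black bars list medians, dotted lines the 2-fold bounds and the red dashed line the median of all genes. Heme and pigment breakdown has the highest list median in both panels (1.67 and 1.27), and the regulators of heme oxygenase 1 have medians of −1.86 and −2.07.

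The genes most like Hmox1, Blvrb and Tfrc were sought among 11239 others by the root mean square difference of their profiles, as log2(RPKM + 1) over the 4 libraries centred on their own mean. Nearest to Hmox1 were Ifi30 (0.23), Mif (0.27), Hint2 (0.28), Dpysl2 (0.28) and Rps27l (0.31). Ifi30, a lysosomal thiol reductase, stood at 6.38, 26.0, 32.0 and 60.2 RPKM in the order used above. Nearest to Blvrb were Gsta4 (0.19), Anapc13 (0.24), Rps26 (0.28), Ndufa5 (0.33) and Usmg5 (0.34), and Gsta4, a glutathione transferase, had values of 6.95, 108, 16.6 and 116. Tfrc had closer neighbours: Crbn (0.03), Map2k1 (0.03), Ccnl1 (0.06), Atxn2l (0.06) and Zfand2a (0.06). Profiles of 4 libraries leave room for many close matches.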

How the data were processed

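Expression in 4 libraries came from RNA-seq. The authors deposited RPKM values for 37224 Ensembl IDs. TopHat, HTSeq, Bowtie, deepTools and mm10 appear in the submitters' processing notes without role or version, and annotation and strand setting are not given in the sources used. The labels' protocols describe ribosomal RNA removal and a dUTP kit, and the molecule label reads polyA RNA, so the selection is unsettled. Symbols were found for 35449 IDs. Positions and upstream sequences are RefSeq's (GRCm38.p6, the assembly of mm10).

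Depth was recovered from the deposited RPKM as the commonest value that 1 read gives over small RNA genes, and length as the shortest that made a gene's values whole reads (relative tolerance 1e-12). It equalled the annotated span in 362 of 545 small RNA genes, so a length can be wrong, often too short by a whole factor. Intervals (exact conditional, Clopper-Pearson, 95%) and floors of 3 reads cover counting error only, since reads are not independent molecules.

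Differences are log2((RPKM + 1)/(RPKM + 1)) where any library reached an RPKM of 1, called at 1 or more; this scale understates low genes. The trend on length was a lowess curve (fraction 0.3). Other pseudocounts, filters and scalings were tried. Named genes are the 10, up to 4 more per pathway list with the largest arsenite effects, Nfe2l2, Keap1, Bach1, Mafk and Mafg, and the 5 nearest profiles of Hmox1, Blvrb and Tfrc among genes that are not predicted genes, pseudogenes or small RNAs. Some genes that the rule names are not reported here. Members and lists were chosen with earlier results of these data known. Python 3.11.15, pandas 2.3.3, scipy 1.17.1 and statsmodels 0.14.6 were used, and the calculations were tested on simulated data.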

Additional observations from a re-analysis of the deposited data

Results flagged for a closer look

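Cp, which encodes the ferroxidase ceruloplasmin, was past 2-fold with arsenite in opposite directions in the 2 genotypes. Its log2 difference was −1.39 in wild type and 1.90 in the Dot1L null, so the difference of the arsenite effects was 3.29. With 1 library per group this difference was not tested. Without the trend on gene length the effect in wild type was 0.03, while the effect in the null was 3.28 and the difference of the effects 3.30.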

How the results depend on the processing

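With 1 library per group, no library was left out in turn. No paired analysis was possible because each group held 1 library, so that the groups share only 1 replicate number. The counts of the 10 genes past 2-fold moved as follows. With arsenite in wild type, 6 higher became 4 with an equal sum of RPKM, and 1 lower became 2 with a pseudocount of 0.1, 3 with an equal sum of RPKM and 0 without the trend on length. In the null, 4 higher became 6 after median centring and after 75th percentile scaling, 3 with a pseudocount of 5 and without the trend, and 2 with an equal sum, and 1 lower became 2 with a pseudocount of 0.1 and with an equal sum. For the null against wild type without arsenite, 2 higher became 3 after median centring, 75th percentile scaling and removal of the trend, and 1 lower became 0 with a pseudocount of 5 and with a filter at an RPKM of 5, which leaves out Slc40a1. With arsenite, 0 higher became 1 after median centring and 75th percentile scaling and 2 without the trend. There 2 lower became 4 with a pseudocount of 0.1, 1 with one of 5, 3 with an equal sum, and 0 after median centring, 75th percentile scaling and removal of the trend. For the difference of the arsenite effects, 1 higher became 2 with an equal sum, and 3 lower became 2 under several settings or 4 with a pseudocount of 0.1. None of the 10 genes changed sign, under any of the 8 alternatives, in a comparison where it was called past 2-fold. The causes were not tested.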
